A study of Caenorhabditis elegans with 24 samples.

Results

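Nuclear hormone receptors are transcription factors that combine a zinc-finger DNA-binding domain with a pocket that can hold a small lipophilic ligand, such as a steroid or a fatty acid, and they switch target genes on or off with the help of coregulators. Caenorhabditis elegans has a far larger family than insects or mammals. A small set of its members has clear counterparts in other animals, and most of the rest are thought to derive from an HNF4-like ancestor, many of them in tandem clusters. In the adult, the better studied members act largely in the intestine, the main fat-storing and yolk-producing tissue of the worm. The members described here are the protein-coding genes whose WormBase symbol is nhr- followed by a number, together with daf-12, the receptor for the steroid dafachronic acid. They were 270 of the 46778 genes in the deposited count tables. Receptor genes that carry another kind of symbol were not included.

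The RNA came from whole worms and gave 24 libraries, with 8 groups of 3. Wild type N2 animals and ceh-60(ok1485) mutants were collected on day 1 and on day 4 of adulthood. The remaining groups were all collected on day 1 and carried the pqm-1 allele ok485 or rhd90, each with ceh-60 intact and each together with ceh-60(ok1485). ceh-60 is the gene of a PBX-family homeodomain factor. pqm-1 encodes a C2H2 zinc-finger factor. Both act in the intestine. Animals with both mutations are called the ok485 and the rhd90 double mutant below. Wild type and ceh-60 libraries were in the first table and all libraries with a pqm-1 allele in the second, so no levels were tested across the tables. Where levels from both are listed side by side, a difference between the tables and one between genotypes cannot be told apart. Each genotype is represented by 1 strain, and the labels do not state that the libraries of a group came from different cultures. The p-values therefore cover only the spread between these libraries.

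Total counts were 18809461 to 32598349 per library, and the receptor genes together took 0.13% to 0.175% of them. ceh-60 itself was 5.57 to 6.77 CPM in wild type and 1.02 to 1.86 CPM in the mutant on day 1, and pqm-1 rose by 1.42 ± 0.07 on the log2 scale (adjusted p = 2.2e-08). pqm-1 was 10.8 to 11.4 CPM in wild type on day 1, 5.57 to 6.15 CPM in pqm-1(ok485) and 4.42 to 5.38 CPM in its double mutant, and 13.3 to 15.3 CPM in pqm-1(rhd90) and 21.8 to 25 CPM in its double mutant. Whether the reads left in the mutants lie outside the altered parts of these genes was not checked, so pqm-1 levels do not check the rhd90 labels. CPM are TMM-scaled counts divided by the library total and brought to a common depth within a table, errors of log2 fold changes are standard errors, and adjusted p-values come from edgeR's quasi-likelihood test with Benjamini-Hochberg adjustment over all genes tested, with 0.05 as the threshold. Whole-animal RNA does not separate a change in the level per cell from a change in the share of RNA that a tissue gives. On day 1 the summed level of 6 intestinal marker genes was 515.9 to 639.2 CPM in wild type and 874.8 to 1293 CPM in ceh-60, and 6 body muscle markers summed to 1292 to 1745 and 1964 to 2733 CPM. On day 4 the intestinal sum was 163.4 to 182.1 CPM in wild type and 316.9 to 347.8 CPM in ceh-60. With either pqm-1 allele the intestinal sum was likewise higher in the double mutant, at 1275 to 1560 against 861.7 to 944.9 CPM for ok485 and 1107 to 1291 against 707.5 to 846.8 CPM for rhd90. Of the 6 markers, 3 passed as higher with ok485 and 4 with rhd90, and none as lower. The intestinal marker elt-2 was 16.4, 14.3 and 14.6 CPM in pqm-1(ok485) and 12.9, 11.8 and 10.4 CPM in its double mutant. None of these markers was at 0 in any group, and their part in the results below was not tested. Sperm markers summed to 8.95 to 22.7 CPM in pqm-1(ok485) and 14.1 to 40.6 CPM in its double mutant, and to at most 5.21 CPM in the other groups. Single libraries stood apart in genes of the epidermis and of moulting, chosen here after their values were seen. pqm-1(ok485) replicate 1 had 53.2 CPM of the collagen gene sqt-3, against 12.7 and 12.2 CPM in the other replicates, and 29.1 CPM of noah-1, against 13.1 and 11 CPM. Its chi-square per degree of freedom over genes was 30.2 and 24.4 against these, which differed from each other by 5.06. In ceh-60 day 4 replicate 3, sqt-3 was 41.4 CPM, against 6.38 and 7.25 CPM. sqt-3 was also highest in replicate 1 of pqm-1(rhd90) and of its double mutant, at 30.8 and 23.8 CPM. Without ceh-60 day 4 replicate 3, the members called numbered 34 in place of 46 for ceh-60 loss on day 4 and 46 in place of 58 for age in ceh-60. Over all genes tested, the calls numbered 2964 in place of 3201 and 6477 in place of 6909. The counts without the other libraries stand beside their comparisons, and the part of these genes in the results was not tested.

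Most receptor genes were rare transcripts. Averaged over the 8 groups, 146 of the 270 reached 1 CPM, a share of 54.1% against 54% of all 19725 protein-coding genes, and 35 reached 10 CPM. No read was counted in any library for 10 members. In all, 171 members had enough counts to be tested in at least 1 of the 3 fits, 168 of them in all 3. The 99 that were tested nowhere had means of at most 0.246 CPM. The median level of the tested members was 2.96 CPM in the first table, against 13.8 CPM for all genes tested there. The top 10 members per length held 46.4% of the summed CPM of the family, so a few abundant receptors stood above a long tail.

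Per kilobase of exon, the most abundant member was nhr-114, which protects the germline when vitamin B12 or tryptophan metabolism is limiting, at a mean of 91 CPM per kb over the 8 groups. nhr-49, the HNF4-type regulator of fatty acid desaturation and oxidation, followed at 51 CPM per kb, and nhr-66, a binding partner of NHR-49, at 41.3 CPM per kb. nhr-68, which activates the propionate shunt, had 27.5 CPM per kb. The ROR-type receptor nhr-23, needed for moulting, and nhr-86, a sensor of bacterial metabolites in the gut, each had 25.5 CPM per kb. nhr-97 with 22, nhr-274 with 20.1, nhr-46 with 19.8 and nhr-71 with 19.7 CPM per kb completed the first 10. Neighbours in this order were not all distinct: nhr-23 and nhr-86 overlapped between libraries in all 4 groups with a pqm-1 allele, and nhr-46 and nhr-71 in both day 1 groups of the first table. nhr-114 had the highest level of the family in each of the 6 day 1 groups. On day 4 it was at 13.5 CPM per kb in wild type and 16.8 CPM per kb in ceh-60, and nhr-49 led.

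**Figure D1:**
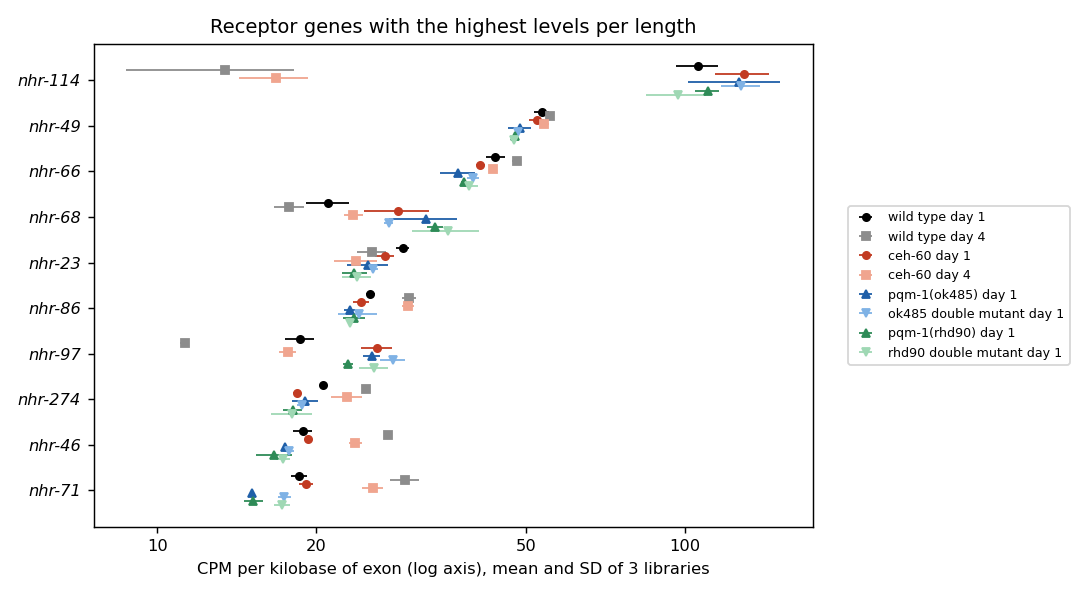
Levels of the 10 receptor genes with the highest mean level per length, as CPM per kilobase of exon on a log axis. Each symbol is the mean of the 3 libraries of a group and bars are the SD. nhr-114 sits above 90 CPM per kb in the 6 day 1 groups and at 13.5 and 16.8 in the day 4 groups, while nhr-49 lies between 47.6 and 55.6 in all 8.

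Chromosome V held 167 of the 270 members, 61.9%, against 25.1% of all protein-coding genes. Another member lay within 20 kb of 173 of them, and 16 runs of at least 4 members took in 106 genes, with 12 of these runs on chromosome V. The longest held 12 members from nhr-123 to nhr-131 at chromosome V, 451451 to 497287 (coordinates of the WormBase release 260 annotation in the file headers). Counting ignored strand, and 41 members shared some exonic sequence with another gene. Only nhr-85 shared as much as 20% of its exons, 39.8% of them with npr-14, so reads of these genes cannot be told apart there.

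On day 1, more receptor genes were higher than lower in ceh-60 mutants, and most did not pass the test. Of 171 members tested, 54 were higher (31.6%) and 3 were lower (1.75%), where 16.1% of all 13137 genes tested were higher and 9.46% lower. The median log2 fold change of the members was 0.37, against -0.03 for all genes tested, and 150 of the 171 estimates were above 0. Of the members past the threshold, 12 changed by at least 2-fold, and the share of all genes with such a change was not counted. On chromosome V, 37 of 107 tested members were higher (34.6%, against 23.3% of all genes tested on that chromosome), and on the other chromosomes 17 of 64 (26.6%, against 14.4%). No tested member on chromosome V was lower, against 6.96% of all genes tested on that chromosome. The count rested in part on single libraries: it was 33 without wild type day 1 replicate 2, 34 without wild type day 1 replicate 3 and 26 without ceh-60 day 1 replicate 1, in place of 57. Over all genes tested, the calls under these omissions numbered 2090, 2100 and 1899, in place of 3354. In all 12 fits that left out a library, 21 of the 57 calls held.

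On day 4, 40 of 171 members were higher in ceh-60 (23.4%) and 6 lower (3.51%), against 16.1% and 8.24% of all genes. The median was 0.32 for the members and 0.00 for all genes, and 134 estimates were above 0. Among all genes called on day 4, 66.2% were higher with edgeR and 54.7% with DESeq2. The day 1 and day 4 comparisons used separate libraries. They shared 26 members that were higher, 48.1% of the day 1 list and 65% of the day 4 list, while for all genes the shares were 64.3% and 64.1%. nhr-2 was lower on both days. A change of the ceh-60 effect between the days passed the threshold for 2 of 171 members (1.17%), nhr-6 and nhr-46, both lower, against 4.04% of all genes in either direction and 2.22% lower. Neither call held throughout. That of nhr-6 was lost without wild type day 1 replicate 2 or 3, any wild type day 4 library, ceh-60 day 1 replicate 2 or 3, or ceh-60 day 4 replicate 1 or 2 (0.0512 to 0.104). That of nhr-46 was lost without wild type day 1 replicate 1 or 3 or any ceh-60 day 1 library (0.0593 to 0.0959). The day 4 count stayed within 1.5 times of 46 on leaving out any library, and 28 of the 46 calls held in each such fit.

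**Figure D2:**
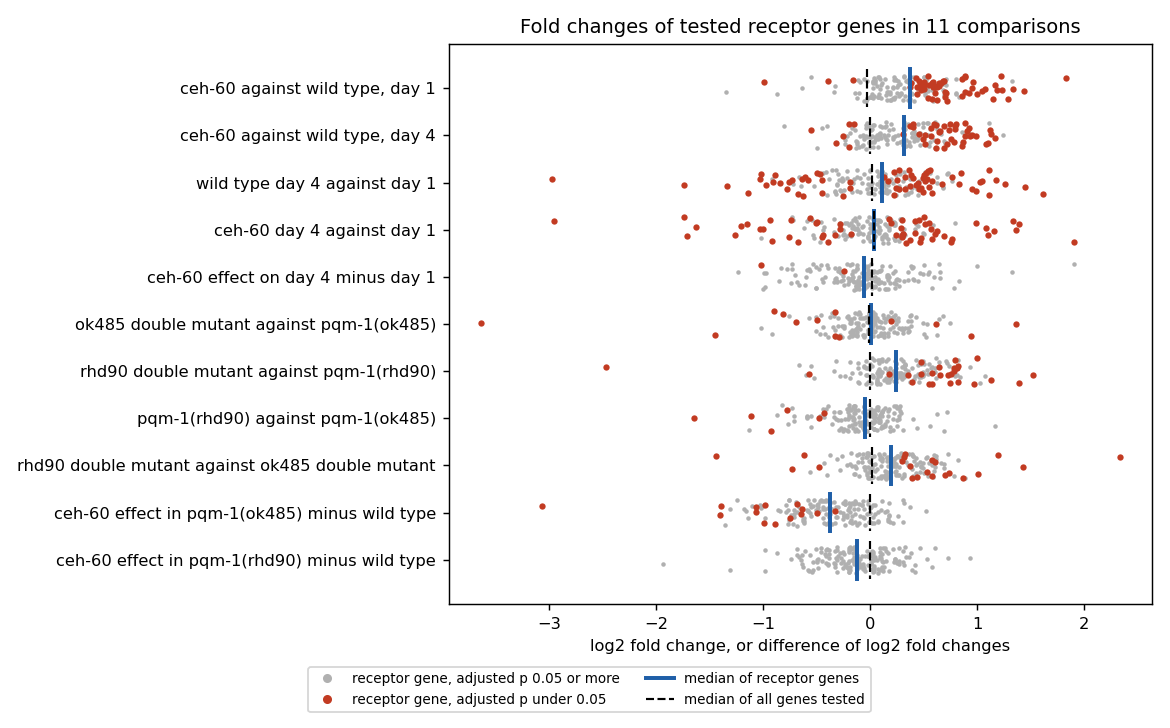
Log2 fold changes of the tested receptor genes, 1 point per gene, in each comparison or difference of effects. Red points passed the threshold, blue bars are the members' medians and dashed bars the medians of all genes tested. The members' medians lie to the right of those of all genes for ceh-60 loss on day 1 (0.37), on day 4 (0.32) and with rhd90 (0.24), and at 0.01 with ok485.

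Among the 12 members with clear counterparts in other animals, 10 were tested on either day, and nhr-111 and nhr-239 were at or near 0. On day 1, nhr-8, nhr-41 and nhr-6 rose, nhr-25 fell and 6 did not pass the test. On day 4, nhr-8 and daf-12 rose and 8 did not pass. Among all genes tested, 16.1% were higher on each day, and 9.46% were lower on day 1 and 8.24% on day 4. nhr-8, a receptor close to DAF-12 with roles in cholesterol balance and the response to foreign chemicals, was 20.1, 20.0 and 17.7 CPM in wild type and 29.9, 24.5 and 25 CPM in ceh-60 on day 1. On day 4 it was 17.9, 18.1 and 15.7 CPM against 26.7, 27.5 and 25.4 CPM. The groups did not overlap on either day, with log2 fold changes of 0.46 ± 0.09 (adjusted p = 0.00229) and 0.62 ± 0.09 (adjusted p = 0.000202), and both calls held without any library.

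nhr-41, a relative of the vertebrate TR2 and TR4 receptors, was 4.67, 4.13 and 3.61 CPM in wild type and 8.82, 5.6 and 5.56 CPM in ceh-60 on day 1, a change of 0.69 ± 0.18 (adjusted p = 0.0152). nhr-6, the NR4A-type receptor required for the spermatheca, was 1.66, 1.39 and 1.17 CPM against 1.82, 2.33 and 2.34 CPM, a change of 0.61 ± 0.19 (adjusted p = 0.0319). nhr-25, the Ftz-F1-type receptor of the epidermis and of moulting, fell most among the 3 that passed, from 4.24, 2.51 and 4.35 CPM to 1.94, 1.66 and 2 CPM, by 0.99 ± 0.30 (adjusted p = 0.0312). In none of these did the libraries of the groups overlap on day 1, yet each call depended on the libraries used. Without wild type day 1 replicate 3 the adjusted p-values of nhr-25, nhr-41 and nhr-6 were 0.113, 0.0676 and 0.119, and without ceh-60 day 1 replicate 1 those of nhr-25 and nhr-41 were 0.0884 and 0.0722. nhr-25 and nhr-6 also lost the call without ceh-60 day 1 replicate 2 (0.0776 and 0.0765) or replicate 3 (0.0655 and 0.0912), nhr-25 without wild type day 1 replicate 1 (0.0848) and nhr-6 without wild type day 1 replicate 2 (0.0905). With DESeq2 nhr-6 did not pass.

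daf-12 was 15.4, 11.3 and 12.9 CPM in wild type and 16.6, 14.8 and 15.1 CPM in ceh-60 on day 1, where the groups overlapped and the change did not pass (0.23 ± 0.12, adjusted p = 0.148). On day 4 it was 11, 9.95 and 12.3 CPM against 16, 14 and 15.6 CPM, a rise of 0.46 ± 0.11 (adjusted p = 0.0105) that was lost without wild type day 4 replicate 2 (0.0716) or ceh-60 day 4 replicate 1 (0.0507). Of 6 tested genes that make or handle the ligands of DAF-12, 1 rose on day 1 and 2 on day 4. ncr-1, a cholesterol transporter of the Niemann-Pick type, rose on both days, by 0.50 ± 0.13 and 0.87 ± 0.12 (adjusted p = 0.016 and 0.0002). daf-36, the oxygenase that starts dafachronic acid synthesis, rose on day 4 by 1.17 ± 0.11 (adjusted p = 6.3e-06) and gave 0.31 ± 0.11 on day 1 (adjusted p = 0.053). daf-9, the cytochrome P450 that makes the ligand itself, gave 1.19 ± 0.41 on day 1 (adjusted p = 0.0502) and 0.03 ± 0.41 on day 4 (adjusted p = 0.966). Of 9 tested genes of the moulting cycle, which NHR-23 and NHR-25 help to drive in larvae, mlt-10 and noah-1 fell on day 1, by 0.53 ± 0.15 and 1.36 ± 0.42 (adjusted p = 0.0211 and 0.0307), and nas-37 rose on day 4 by 0.40 ± 0.10 (adjusted p = 0.0135).

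**Figure D3:**
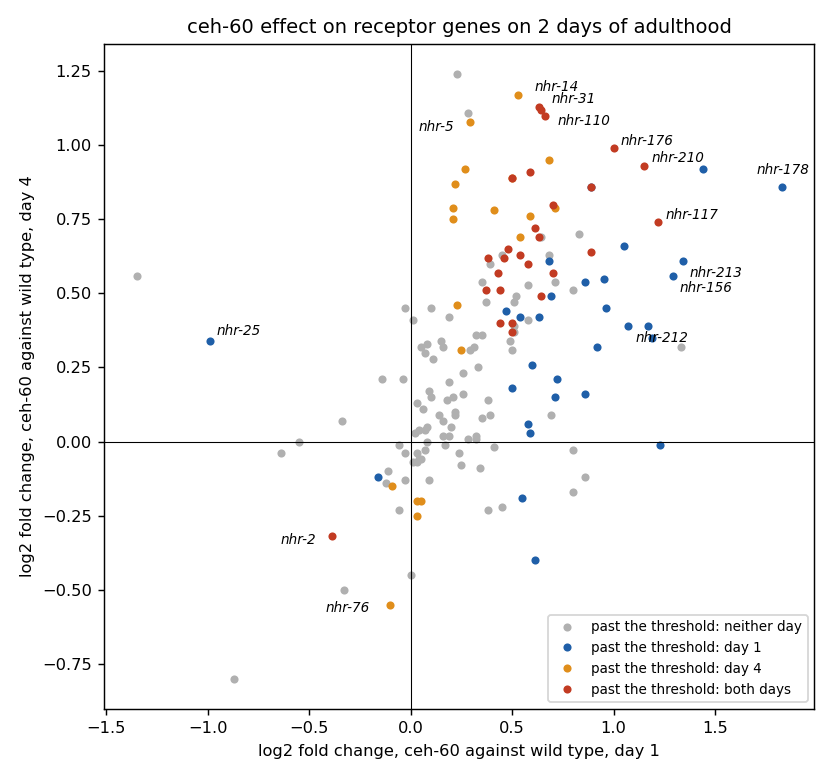
Log2 fold change of ceh-60 against wild type on day 1 (horizontal) and day 4 (vertical) for each receptor gene tested, coloured by the day or days on which it passed the threshold. Most points lie in the upper right, where both estimates are above 0. nhr-25 (-0.99 on day 1) and nhr-76 (-0.55 on day 4) are among the few clearly below 0 on a day.

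Among the receptors of fat metabolism, nhr-49 did not pass the test and nhr-80 rose on both days. nhr-49 lay between 110 and 122 CPM in all 12 wild type and ceh-60 libraries, with log2 fold changes on loss of ceh-60 of -0.03 ± 0.04 on day 1 and -0.04 ± 0.04 on day 4 (adjusted p = 0.567 and 0.51). In all 8 comparisons between 2 groups its log2 fold change lay within 0.05 of 0 and did not pass. nhr-66 did not pass on day 1 (-0.09 ± 0.04, adjusted p = 0.0812). On day 4 nhr-66 was slightly lower in ceh-60, at 129, 126 and 127 CPM against 143, 139 and 142 CPM (-0.15 ± 0.04, adjusted p = 0.01), a call that held without any library. nhr-80, the partner of NHR-49 that drives the desaturases fat-5 and fat-6, was 5.94, 5.57 and 6.30 CPM in wild type and 9.46, 7.6 and 8.04 CPM in ceh-60 on day 1. Its groups did not overlap and the rise was 0.50 ± 0.11 (adjusted p = 0.0061), held without any library. On day 4 nhr-80 was 5.30, 4.77 and 5.19 CPM against 6.91, 6.11 and 7.01 CPM.

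On day 4 nhr-80 rose by 0.40 ± 0.11 (adjusted p = 0.0215), and nhr-69, a member of the HNF4 group linked to glucose metabolism, rose by 0.31 ± 0.09 (adjusted p = 0.023). nhr-69 was 10.9, 10.4 and 9.84 CPM against 14.1, 11.7 and 12.9 CPM. Both calls were lost without wild type day 4 replicate 2 (0.106 and 0.0884), wild type day 4 replicate 3 (0.0518 and 0.0927), ceh-60 day 4 replicate 1 (0.0738 and 0.12) or ceh-60 day 4 replicate 3 (0.0751 and 0.0644). nhr-76, which acts in serotonin-driven fat loss in the intestine, went the other way. It was 7.65, 8.27 and 8.93 CPM in wild type and 5.47, 6.49 and 4.99 CPM in ceh-60 on day 4, a fall of 0.55 ± 0.12 (adjusted p = 0.00403) that held without any library, and on day 1 the groups overlapped (-0.10 ± 0.12, adjusted p = 0.561). nhr-13, nhr-62 and nhr-64 did not pass on either day. In all, of 11 metabolic receptors 2 rose on day 1 (nhr-80 and nhr-68) and 3 rose and 2 fell on day 4. Over all genes tested, 16.1% were higher on each day, and 9.46% were lower on day 1 and 8.24% on day 4.

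Known targets of NHR-49 changed in both directions on day 1. Of 10 tested, 5 rose and 2 fell on day 1, and 9 rose and none fell on day 4. fat-5, which desaturates palmitic acid, was 30.2, 32.8 and 29.6 CPM in wild type and 71.1, 62.1 and 61.3 CPM in ceh-60 on day 1, a rise of 1.07 ± 0.08 (adjusted p = 8e-07). acs-2, the acyl-CoA synthetase of mitochondrial oxidation, was 28, 33.4 and 25.5 CPM against 11.5, 16.9 and 12.2 CPM on day 1, a fall of 1.1 ± 0.16 (adjusted p = 0.00019). On day 4 the order of acs-2 was turned: 18.8, 17.2 and 24.2 CPM in wild type and 73.7, 65.9 and 64.4 CPM in ceh-60, a rise of 1.77 ± 0.15 (adjusted p = 1.7e-06), and the 2 effects differed by 2.86 ± 0.21 (adjusted p = 1.8e-05). fat-7, a stearic acid desaturase, fell on day 1 by 1.17 ± 0.18 (adjusted p = 0.0004) and gave 0.20 ± 0.17 on day 4 (adjusted p = 0.41). The isocitrate lyase gene icl-1 rose on both days, by 0.58 ± 0.12 and 1.05 ± 0.12 (adjusted p = 0.0031 and 2.5e-05). mdt-15, the Mediator subunit that works with NHR-49, was 204 to 211 CPM in wild type and 204 to 215 CPM in ceh-60 on day 1. Of 4 tested coregulator genes, only din-1, a corepressor partner of DAF-12, passed on day 1 (-0.11 ± 0.03, adjusted p = 0.033), and none on day 4.

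nhr-10 and nhr-68 switch on the propionate shunt when vitamin B12 is scarce. nhr-68 (chromosome V, 11573440 to 11575709, plus strand) was 32, 27 and 27.8 CPM in wild type and 44.5, 33.5 and 39.8 CPM in ceh-60 on day 1, and 25.2, 25.4 and 22.6 CPM against 32.9, 30.7 and 33.2 CPM on day 4. The groups did not overlap on either day. Its rises were 0.44 ± 0.10 (adjusted p = 0.00526), held without any library, and 0.40 ± 0.10 (adjusted p = 0.009), lost without wild type day 4 replicate 3 (0.0521). nhr-101, the next gene on the same strand, ending at 11572370, rose on day 1 from 9.34, 7.81 and 9.33 CPM to 13.1, 12.4 and 12 CPM (0.50 ± 0.12, adjusted p = 0.00894, held without any library). nhr-10 did not pass on either day. Of 9 genes of propionate breakdown, 3 rose on day 1, the shunt genes ech-6, hphd-1 and alh-8 by 0.23 to 0.43, and the shunt gene acdh-1 gave 0.35 ± 0.14 (adjusted p = 0.087). On day 4 none rose and acdh-1 fell by 0.80 ± 0.14 (adjusted p = 0.0013).

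Of 6 receptors with other known roles, 3 rose and nhr-2 fell on each day. The shares of all genes tested were 16.1% higher on each day, and 9.46% lower on day 1 and 8.24% on day 4. nhr-31, required for the tubule of the excretory cell and its proton pumps, was 26.9, 21.4 and 24.0 CPM in wild type and 42.2, 31.2 and 39.2 CPM in ceh-60 on day 1, and 6.83, 7.68 and 7.06 CPM against 14.6, 16.2 and 16.3 CPM on day 4. Every ceh-60 library was above every wild type library of its day. The rises were 0.64 ± 0.11 (adjusted p = 0.000933) and 1.12 ± 0.12 (adjusted p = 1.95e-05). nhr-14, which takes part in iron uptake and immunity in the intestine, was 11.5, 7.81 and 8.35 CPM against 16, 12.6 and 14.2 CPM on day 1 and 7.06, 6.71 and 5.77 CPM against 14.9, 13.3 and 14.6 CPM on day 4. It rose by 0.63 ± 0.14 (adjusted p = 0.00576) and 1.13 ± 0.14 (adjusted p = 6.74e-05). All 4 of these calls held without any library.

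nhr-57, a target of the hypoxia factor HIF-1, rose from 1.83, 1.66 and 2 CPM to 2.83, 3.35 and 2.29 CPM on day 1 (0.63 ± 0.18, adjusted p = 0.0244) and from 3.69, 4.33 and 3.20 CPM to 5.36, 6.23 and 6.61 CPM on day 4 (0.69 ± 0.16, adjusted p = 0.00666). nhr-2, expressed in the early embryo, was lower in ceh-60 on both days: 29.3, 25.5 and 30.7 CPM against 20.6, 22.2 and 22.4 CPM on day 1 (-0.39 ± 0.11, adjusted p = 0.0232) and 35.8, 40 and 45.4 CPM against 27.6, 32.6 and 36.6 CPM on day 4, where the groups overlapped (-0.32 ± 0.11, adjusted p = 0.0429). Embryo markers summed to 20.9 to 25.8 CPM in wild type and 12.9 to 17.3 CPM in ceh-60 on day 1, none at 0. On day 4 the sums overlapped, at 32.3 to 56.4 CPM in wild type and 22.8 to 39 CPM in ceh-60. Of 8 embryo markers tested, 1 was lower and none higher on each day. Their part in the nhr-2 result was not tested. The day 1 calls of nhr-57 and nhr-2 were lost without wild type day 1 replicate 1 (0.0516 and 0.06) or ceh-60 day 1 replicate 1 (0.066 and 0.102), that of nhr-57 also without wild type day 1 replicate 2 (0.0922) or ceh-60 day 1 replicate 2 (0.0795), and that of nhr-2 without wild type day 1 replicate 3 (0.0985). The day 4 call of nhr-2 was lost without wild type day 4 replicate 2 (0.0727) or 3 (0.108), ceh-60 day 4 replicate 1 (0.118) or 2 (0.0655), and without wild type day 1 replicate 1 (0.0536) or ceh-60 day 1 replicate 3 (0.0553). nhr-86 did not pass on either day, and of 3 genes it controls in the immune response irg-4 rose on both, by 2.66 ± 0.39 and 3.52 ± 0.41 (adjusted p = 0.00024 and 3.7e-05), and irg-6 rose on day 4 by 1.76 ± 0.30 (adjusted p = 0.000788). nhr-40, which acts in muscle, did not pass.

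Among members of at least 1 CPM whose groups did not overlap, the 6 largest rises on day 1 belonged to members of chromosome V with no named role here. nhr-178 (1603934 to 1607846, minus strand) was 0.699, 0.359 and 0.342 CPM in wild type and 2.11, 1.36 and 1.56 CPM in ceh-60, a rise of 1.83 ± 0.35 (adjusted p = 0.00208). nhr-213 was 0.873, 0.449 and 0.391 CPM against 1.39, 1.91 and 1.07 CPM (1.34 ± 0.35, adjusted p = 0.0132). Beside them, nhr-156 rose by 1.29 ± 0.24, nhr-117 by 1.22 ± 0.26, nhr-210 by 1.15 ± 0.21 and nhr-212 by 1.07 ± 0.19, with adjusted p-values of 0.00146, 0.00421, 0.00119 and 0.001. nhr-156 was 2.36, 1.44 and 2.39 CPM in wild type and 5.53, 4.16 and 5.46 CPM in ceh-60. nhr-210 was 2.58, 1.98 and 2.30 CPM against 5.78, 4.20 and 5.26 CPM. None of these groups overlapped. Only the call of nhr-213 depended on a library, being lost without wild type day 1 replicate 2 (0.061) or replicate 3 (0.063). These are low levels, where few reads set the precision.

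On day 4, nhr-210 was again higher, at 3.06, 2.42 and 2.16 CPM in ceh-60 against 1.69, 1.29 and 0.997 CPM in wild type (0.93 ± 0.22, adjusted p = 0.00755), while for nhr-178, nhr-213, nhr-156 and nhr-212 the changes did not pass (0.86, 0.61, 0.56 and 0.39). Among members of at least 1 CPM, the rises on day 4 were led by nhr-14, nhr-31, nhr-110 (1.1 ± 0.18), nhr-5 (1.08 ± 0.15), nhr-176 (0.99 ± 0.15) and nhr-63 (0.95 ± 0.23), with adjusted p-values for the latter 4 of 0.000534, 0.000209, 0.000309 and 0.0099. nhr-63 lost the call without wild type day 4 replicate 2 (0.0554). nhr-176 was 2.14, 2.65 and 2.54 CPM against 5.45, 4.29 and 4.97 CPM on day 1 and 2.67, 2.71 and 2.62 CPM against 6.11, 4.49 and 5.25 CPM on day 4. It rose on day 1 as well (1.00 ± 0.15, adjusted p = 0.000368). Besides nhr-76, nhr-66 and nhr-2, the members that fell on day 4 were nhr-20 (-0.25 ± 0.07), nhr-46 and nhr-71 (both -0.20), with adjusted p-values of 0.0147, 0.0019 and 0.0147, all held without any library. nhr-97, likewise abundant, rose from 47.5, 48.2 and 42.7 CPM to 69.4, 63.0 and 61.1 CPM on day 1 and from 28.1, 28.3 and 27.3 CPM to 45.4, 42.4 and 43.4 CPM on day 4, by 0.48 ± 0.06 and 0.65 ± 0.06 (adjusted p = 5.78e-05 and 5.06e-06). nhr-274 fell on day 1 by only 0.16 ± 0.05 (adjusted p = 0.0353), from 41.8, 41.3 and 41.6 CPM to 36.6, 37.9 and 37.1 CPM, and the call was lost under 10 of the 12 omissions, namely wild type day 1 replicates 1, 2 and 3 (0.0771, 0.0885 and 0.1), ceh-60 day 1 replicates 1 and 3 (0.132 and 0.0926), all 3 wild type day 4 libraries (0.0694, 0.074 and 0.0614) and ceh-60 day 4 replicates 1 and 2 (0.0513 and 0.0653).

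Within runs of neighbouring members, some passed the test and others did not. Of tested members with another within 20 kb, 35.3% were higher on day 1 and 21.6% on day 4. Of those without, 26.1% were higher on each day, and these differences were not tested. On chromosome V, 34.6% of tested members and 23.3% of all genes tested were higher on day 1, and 23.4% and 22.7% on day 4. In the run of 12 on chromosome V from nhr-123 to nhr-131, each member was tested, 6 rose on day 1 and 3 on day 4, and none fell. In the run of 7 that holds nhr-178, nhr-179, nhr-117 and nhr-110 at 1603934 to 1629432, these 4 rose on day 1 and nhr-117 and nhr-110 also on day 4, while nhr-237, the next gene beyond nhr-110 and chosen here after its values were seen, was 0.83, 0.808 and 1.22 CPM against 1.39, 0.849 and 0.877 CPM on day 1 and did not pass. The day 1 call of nhr-179 was lost under 9 of 12 omissions (0.0515 to 0.191), among them each wild type library, and that of nhr-110 without wild type day 1 replicate 1 (0.0528). Reads that map to several places were left out of the counts, which may lower the counts of members with near-identical copies.

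With age, receptor genes moved in both directions. From day 1 to day 4 in wild type, 43 of 171 members were higher (25.1%) and 25 lower (14.6%), against 28.4% and 26.3% of all genes tested and 54.8% in either direction. In ceh-60 mutants 34 were higher (19.9%) and 24 lower (14%), against 28.3% and 24.3%, and 52.6% in either direction. The difference between the members' shares and those of all genes was not tested, and the members had lower levels (the medians given above). The 2 age comparisons shared no library. They had in common 24 members that were higher (55.8% and 70.6% of the lists) and 18 that were lower (72% and 75%). For all genes called, the shares were 75.9% and 76.2% higher and 72.8% and 78.8% lower. On leaving out a library no count moved by more than 1.5 times, and 40 of the 68 and 30 of the 58 calls held in every such fit.

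nhr-114 (chromosome V, 4187185 to 4190008, plus strand) showed the largest fall with age in both genotypes. It was 179, 149 and 162 CPM on day 1 and 26.8, 22.6 and 12.7 CPM on day 4 in wild type, and 218, 173 and 205 CPM and 30.1, 24.5 and 22.7 CPM in ceh-60. The changes were -2.97 ± 0.19 (adjusted p = 5.63e-08) and -2.95 ± 0.19 (adjusted p = 6.72e-08), held without any library, and they did not differ detectably (0.02 ± 0.26, adjusted p = 0.978). Genotype did not change nhr-114 past the threshold on either day. nhr-31 fell by 1.74 ± 0.12 in wild type and 1.26 ± 0.11 in ceh-60 (adjusted p = 1.05e-07 and 1.16e-06). nhr-97 fell by 0.73 ± 0.06 and 0.56 ± 0.06 (adjusted p = 5.54e-07 and 5.05e-06). nhr-156 fell by 0.97 ± 0.26 and 1.71 ± 0.24, nhr-228 by 1.02 ± 0.13 and 0.74 ± 0.13, and nhr-210 by 0.78 ± 0.22 and 1.00 ± 0.20, all past the threshold and held without any library. Marker genes of more than 1 tissue moved with age. Of 6 intestinal markers, 4 fell and 1 rose in wild type, and 4 fell and 2 rose in ceh-60. act-5 makes up most of their sum and fell, while the esterase gene ges-1 went from 15.5 to 17.1 CPM to 30.5 to 33 CPM in wild type and from 36.2 to 40.8 CPM to 55.2 to 59.7 CPM in ceh-60. All 6 body muscle markers fell in both genotypes, and their sum was 499.9 to 597.5 CPM in wild type and 566.4 to 669.1 CPM in ceh-60 on day 4. The part of these tissues in the falls of the receptor genes was not tested.

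Further falls were less certain. In wild type nhr-15 fell by 1.14 ± 0.33 (adjusted p = 0.0103), lost without wild type day 1 replicate 3 (0.0557), and nhr-25 by 0.84 ± 0.30 (adjusted p = 0.0274). The call of nhr-25 was lost without wild type day 1 replicate 1 (0.0956) or 3 (0.1) or wild type day 4 replicate 1 (0.0842) or 3 (0.0666). In ceh-60 mutants nhr-179 fell by 1.74 ± 0.33, nhr-115 by 1.15 ± 0.23 and nhr-53 by 1.03 ± 0.30 (adjusted p = 0.000683, 0.0012 and 0.0106), the last lost without ceh-60 day 1 replicate 3 (0.0538). In wild type nhr-179 fell as well, by 1.34 ± 0.36 (adjusted p = 0.00691, held without any library), and so did nhr-115 by 0.76 ± 0.26 and nhr-53 by 0.89 ± 0.31 (adjusted p = 0.023 and 0.0281). These last calls were lost without wild type day 1 replicate 1 (0.0766 and 0.0533) or wild type day 4 replicate 1 (0.0515 and 0.0943), that of nhr-115 also without wild type day 1 replicate 2 (0.0695) or wild type day 4 replicate 3 (0.0913), and that of nhr-53 without wild type day 1 replicate 3 (0.133) or wild type day 4 replicate 2 (0.0832). nhr-115 shares 13.2% of its exons with nhr-225. For nhr-15 and nhr-25 in ceh-60 the changes did not pass (-0.53 and 0.49), and for these 2 genes the difference between genotypes did not pass either (adjusted p = 0.575 and 0.114).

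Propionate genes split with age along their pathway. Of 9 tested, 5 fell and 3 rose in each genotype. The fallers were the shunt genes acdh-1, ech-6, hach-1, hphd-1 and alh-8, by 0.71 to 1.58 in wild type and 0.89 to 2.41 in ceh-60. The risers were pcca-1, pccb-1 and mmcm-1 of the canonical B12-dependent route, by 0.21 to 0.41 and 0.14 to 0.30. mce-1 did not pass in either genotype. nhr-68, a regulator of the shunt genes, fell by 0.28 ± 0.10 in ceh-60 (adjusted p = 0.024), lost without ceh-60 day 1 replicate 1 (0.121) or 3 (0.0602) or ceh-60 day 4 replicate 2 (0.0625). In wild type nhr-68 fell by 0.25 ± 0.10 (adjusted p = 0.049), lost under 9 of 12 omissions (0.0633 to 0.213), that is, except when ceh-60 day 1 replicates 1 or 2 or wild type day 1 replicate 2 was left out. nhr-10 went the other way, from 23.8, 21.9 and 23.9 CPM to 28, 28.5 and 24.4 CPM in wild type (0.22 ± 0.07, adjusted p = 0.0237), lost without wild type day 1 replicate 2 (0.0906) or wild type day 4 replicate 1 (0.0952) or 2 (0.11). In ceh-60 nhr-10 rose by 0.20 ± 0.08 (adjusted p = 0.0393), lost under 8 of 12 omissions (0.0582 to 0.231).

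Among members that rose with age, nhr-6 rose most in wild type, from 1.66, 1.39 and 1.17 CPM to 4.71, 3.91 and 4.49 CPM (1.62 ± 0.18, adjusted p = 5.83e-06). In ceh-60 it went from 1.82, 2.33 and 2.34 CPM to 2.83, 3.65 and 3.41 CPM (0.61 ± 0.17, adjusted p = 0.00979), lost without ceh-60 day 4 replicate 2 (0.0531). nhr-17 rose in both genotypes, from 10.3, 11.9 and 13.1 CPM to 24.9, 24.8 and 26.9 CPM (1.11 ± 0.12, adjusted p = 4.14e-06) and from 11.1, 11.2 and 12.1 CPM to 26.9, 25.9 and 35.4 CPM (1.36 ± 0.12, adjusted p = 9.16e-07). nhr-11 rose by 1.26 ± 0.21 and 1.16 ± 0.21, nhr-57 by 1.03 ± 0.18 and 1.1 ± 0.17, nhr-19 by 0.95 ± 0.14 and 1.34 ± 0.13 and nhr-112 by 0.99 ± 0.20 and 1.39 ± 0.19 in wild type and ceh-60, all past the threshold and held without any library. In wild type nhr-102 rose by 1.11 ± 0.14 and nhr-56 by 1.05 ± 0.23, and in ceh-60 nhr-43 rose by 1.08 ± 0.30, each held without any library. nhr-102 and nhr-56 rose in ceh-60 too, by 0.37 ± 0.14 and 0.63 ± 0.23 (adjusted p = 0.0394 and 0.0351), each lost under 7 of 12 omissions (up to 0.135 and 0.2), and nhr-43 gave 0.68 ± 0.30 in wild type (adjusted p = 0.0724). Of the abundant members, nhr-71 rose by 0.67 ± 0.05 and 0.42 ± 0.05, nhr-46 by 0.54 ± 0.04 and 0.30 ± 0.04, nhr-274 by 0.27 and 0.31 and nhr-86 by 0.25 and 0.30, past the threshold in both genotypes and held without any library.

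**Figure D4:**
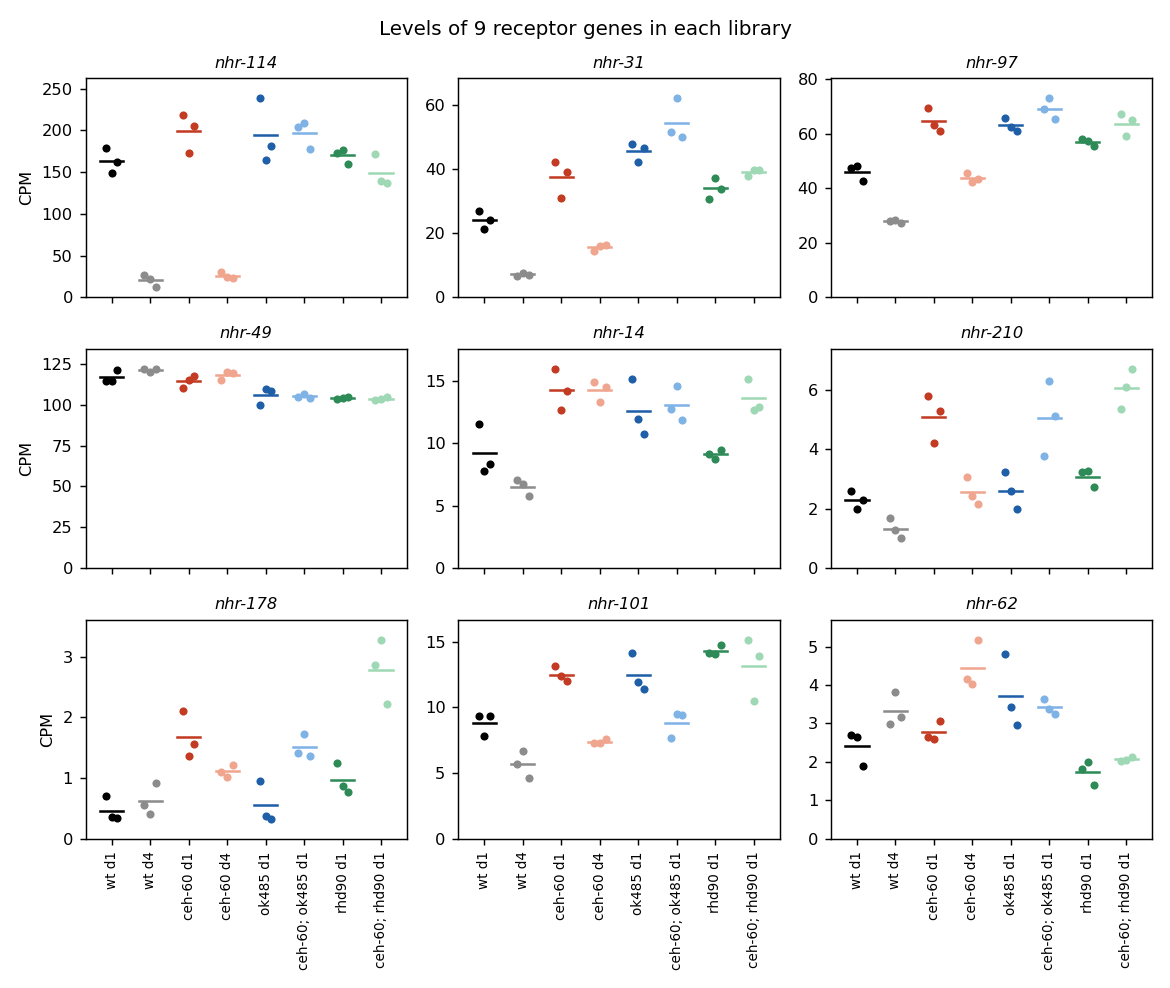
CPM of 9 receptor genes in each library, with the group mean as a line and linear axes that start at 0. wt is wild type, d1 and d4 are days of adulthood, and ok485 and rhd90 are pqm-1 alleles. nhr-114 drops on day 4 in both genotypes, nhr-31 and nhr-97 drop with age and are higher in ceh-60 on each day, nhr-49 is level, and nhr-62 is lower with rhd90 than with ok485. The first 4 groups and the last 4 were scaled in separate tables.

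With pqm-1(rhd90), loss of ceh-60 was again accompanied by more rises than falls. Of 168 members tested, 24 were higher (14.3%) and 2 lower (1.19%), against 9.79% and 2.07% of all 13324 genes and 11.9% in either direction. The median was 0.24 for members and 0.00 for all genes, and 139 estimates were above 0. With pqm-1(ok485), 4 members were higher (2.38%) and 9 lower (5.36%), against 4.76% and 4.21% of all genes and 8.97% in either direction, and the median was 0.01 against -0.01. The rhd90 count of 26 fell to 13 without pqm-1(rhd90) replicate 1, 12 without replicate 2 and 13 without replicate 3, and to 9 without rhd90 double mutant replicate 1 and 13 without replicate 3. Calls over all genes, 1581 in the reported fit, were 1217, 1357 and 1072, and 1106 and 1169, under the same omissions. The ok485 count of 13 fell to 8, 7 and 8 without pqm-1(ok485) replicates 1, 2 and 3, and to 6, 6 and 4 without ok485 double mutant replicates 1, 2 and 3. Here calls over all genes, 1195 in the reported fit, were 1106, 992 and 1079, and 803, 908 and 738. Of the members' calls, 6 with rhd90 and 3 with ok485 held in every such fit.

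The rises with rhd90 were led by nhr-178, nhr-156, nhr-117, nhr-206, nhr-210 and nhr-183 among members of at least 1 CPM. nhr-156 was 2.34, 1.27 and 1.55 CPM in pqm-1(rhd90) and 5.34, 3.53 and 4.65 CPM in the double mutant, and nhr-210 was 3.23, 3.26 and 2.73 CPM against 5.34, 6.09 and 6.69 CPM. The groups did not overlap, and the rises of 1.39 ± 0.29 (adjusted p = 0.00612) and 0.97 ± 0.21 (adjusted p = 0.00774) held without any library. nhr-178 rose by 1.52 ± 0.34 (adjusted p = 0.0088), lost without pqm-1(rhd90) replicate 3 (0.0563), and nhr-117 by 1.13 ± 0.25 (adjusted p = 0.00991), lost without rhd90 double mutant replicate 3 (0.053). nhr-41 went from 5.52, 4.79 and 5.05 CPM to 9.81, 8.24 and 8.22 CPM, by 0.78 ± 0.13 (adjusted p = 0.00168), and nhr-50 rose by 0.81 ± 0.18 (adjusted p = 0.0108), both held without any library. nhr-206 (1.00 ± 0.29, adjusted p = 0.0435) and nhr-183 (0.82 ± 0.22, adjusted p = 0.0264) were less certain. Both were lost without pqm-1(rhd90) replicate 1 (0.0709 and 0.0644), 2 (0.094 and 0.105) or 3 (0.186 and 0.0713), or rhd90 double mutant replicate 1 (0.204 and 0.0866) or 3 (0.0821 and 0.0899). nhr-183 was also lost without rhd90 double mutant replicate 2 (0.0507), and nhr-206 without pqm-1(ok485) replicate 3 (0.0603) or ok485 double mutant replicate 1 (0.0586) or 3 (0.0592). Loss of ceh-60 was accompanied by higher levels of 9 members on day 1, on day 4 and with rhd90, in comparisons that share no library: nhr-8, nhr-14, nhr-80, nhr-107, nhr-117, nhr-176, nhr-193, nhr-210 and nhr-226. nhr-107 and nhr-226 lie outside the naming rule and were chosen after their values were seen. Of members higher with rhd90, 66.7% were higher on day 1 and 45.8% on day 4, against 83.7% and 66.2% of all genes higher with rhd90. Of the 9, only nhr-210 kept all 3 calls without any library.

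With ok485, the 4 members that were higher were nhr-178, nhr-210, nhr-193 and nhr-71. All of them were also higher with rhd90, as were 89.1% of all genes higher with ok485. nhr-210 was 3.22, 2.58 and 1.98 CPM in pqm-1(ok485) and 3.76, 6.29 and 5.13 CPM in the double mutant (0.94 ± 0.21, adjusted p = 0.0136). nhr-178 was 0.954, 0.376 and 0.322 CPM against 1.41, 1.73 and 1.37 CPM (1.36 ± 0.36, adjusted p = 0.0332). Both calls were lost without ok485 double mutant replicate 2 (0.0599 and 0.1) or 3 (0.0512 and 0.0744), that of nhr-178 also without ok485 double mutant replicate 1 (0.0725) or pqm-1(ok485) replicate 2 (0.102) or 3 (0.0924). With only the compared groups in the fit, none of the 4 rises passed (0.0604 to 0.153), and of the 9 falls only those of nhr-137 and nhr-202 did (0.0201 and 0.0319). nhr-71 gave 0.20 ± 0.05 with ok485 and 0.18 ± 0.05 with rhd90 (adjusted p = 0.028 and 0.0376), and nhr-193 0.62 ± 0.18 and 0.75 ± 0.17 (adjusted p = 0.0472 and 0.0118). The ok485 call of nhr-71 was lost under 5 omissions (0.0517 to 0.128), all of them libraries of the pair except ok485 double mutant replicate 2. The rhd90 call of nhr-71 was lost under all 12 omissions (0.0517 to 0.198), and the ok485 call of nhr-193 under 11 of 12 (0.0561 to 0.165).

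The falls with ok485 were led by nhr-53, nhr-137, nhr-202, nhr-101, nhr-88 and nhr-10 among members of at least 1 CPM. nhr-137 was 7.43, 5.59 and 7.13 CPM in pqm-1(ok485) and 3.80, 4.15 and 3.60 CPM in the double mutant (-0.81 ± 0.17, adjusted p = 0.00898). nhr-202 (chromosome V, 462600 to 464963, plus strand) was 6.58, 7.32 and 7.24 CPM against 4.06, 5.10 and 3.91 CPM (-0.69 ± 0.13, adjusted p = 0.00433). With rhd90 nhr-202 also fell, from 5.10, 6.27 and 5.72 CPM to 4.01, 3.68 and 3.84 CPM (-0.57 ± 0.13, adjusted p = 0.0137). These calls held without any library. In wild type and ceh-60 on day 1, nhr-202 was 1.96, 1.98 and 2.05 CPM and 3.29, 2.04 and 2.53 CPM, and did not pass (0.39 ± 0.19, adjusted p = 0.145). nhr-53 fell by 0.90 ± 0.21, nhr-101 by 0.50 ± 0.14, nhr-88 by 0.33 ± 0.08 and nhr-10 by 0.33 ± 0.08 (adjusted p = 0.0197, 0.0393, 0.0228 and 0.0196). Each of these 4 was lost without ok485 double mutant replicate 3 (0.0775, 0.0763, 0.0721 and 0.053). Further omissions that ended a call were pqm-1(ok485) replicate 1 for nhr-53, nhr-101 and nhr-10 (0.051, 0.129 and 0.0503), replicate 2 for nhr-101 and nhr-10 (0.0567 and 0.065) and replicate 3 for nhr-53 and nhr-88 (0.0616 and 0.0681). ok485 double mutant replicate 1 ended those of nhr-101, nhr-88 and nhr-10 (0.153, 0.105 and 0.0813), replicate 2 those of nhr-53, nhr-101 and nhr-10 (0.0661, 0.0648 and 0.0561), and each pqm-1(rhd90) library (0.0506, 0.0534 and 0.0605) and rhd90 double mutant replicate 3 (0.0588) that of nhr-101. daf-12 also fell with ok485, from 22.1, 21.4 and 20.3 CPM to 16.6, 18.2 and 17.3 CPM (-0.29 ± 0.08, adjusted p = 0.0302), lost without pqm-1(ok485) replicate 1 (0.079) or 2 (0.0685) or ok485 double mutant replicate 1 (0.122) or 3 (0.0908).

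nhr-74, below 1 CPM and outside the naming rule, was singled out after its values were seen. It had 18, 18 and 6 reads in pqm-1(ok485) and 1, 1 and 1 in the ok485 double mutant, a ratio of 0.0755 with a 95% exact interval of 0.015 to 0.236 that covers counting error only. With rhd90 it had 14, 31 and 33 reads against 5, 4 and 7, a ratio of 0.191 (0.104 to 0.329). In wild type and ceh-60 on day 1 its libraries overlapped, at 0.480, 0.584 and 0.488 CPM and 0.211, 0.637 and 0.195 CPM.

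The effect of ceh-60 loss on day 1 was lower with ok485 than in the wild type background for 14 of 169 members tested (8.28%) and higher for none, against 4.17% and 0.265% of all 13589 genes and 4.43% in either direction. Of all calls 5.98% were higher by edgeR and 19.9% by DESeq2. The median difference was -0.37 for members and 0.00 for all genes, and 27 of 169 estimates were above 0. Each effect here was taken within its own table. Because wild type and pqm-1 libraries are in separate tables, a difference between the tables and one between the backgrounds cannot be told apart. This holds for levels and also for the size of the ceh-60 effect. nhr-101 had the smallest p among the 14. Its ceh-60 effect was 0.50 in wild type and -0.50 with ok485, a difference of -0.98 ± 0.17 (adjusted p = 0.00556), and this was the only call to hold without any of the 18 libraries. For its neighbour nhr-68 the difference was -0.65 ± 0.16 (adjusted p = 0.026), lost under 7 omissions (0.0516 to 0.0908): pqm-1(ok485) replicate 1, wild type day 1 replicate 2 or 3, ceh-60 day 1 replicate 1 or 3, and ok485 double mutant replicates 1 and 3. The summed level of 4 pharynx markers went from 2.51 to 4.63 CPM in wild type to 6.97 to 12.9 CPM in ceh-60, and from 9.34 to 12.8 CPM in pqm-1(ok485) to 5.56 to 7.48 CPM in its double mutant. In pqm-1(rhd90) the sum was 6.03 to 10.4 CPM, and in its double mutant 9.08 to 16.85 CPM. For the difference with ok485, 2 of 3 tested pharynx markers, 2 of 7 neuron markers and 1 of 6 intestinal markers were lower. No body muscle, germline, sperm, embryo or epidermis marker passed. The part of these tissues in the differences was not tested.

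The largest differences among the 14, for members of at least 1 CPM over the libraries compared, were those of nhr-85 (-1.40 ± 0.36), nhr-53 (-1.39 ± 0.35), nhr-94 and nhr-202 (both -1.07), nhr-137 (-0.99 ± 0.24) and nhr-101, with adjusted p-values of 0.0386, 0.0317, 0.0327, 0.0168 and 0.0293 for the first 5. Without ceh-60 day 1 replicate 1 these 5 were lost (0.134, 0.0854, 0.0931, 0.0572 and 0.078), and without ok485 double mutant replicate 3 as well (0.0844, 0.0825, 0.0937, 0.0518 and 0.0804). Those of nhr-85, nhr-53, nhr-94 and nhr-137 were lost without wild type day 1 replicate 2 (0.0885, 0.0732, 0.057 and 0.0621), and nhr-53, nhr-94 and nhr-137 without ceh-60 day 1 replicate 3 (0.0784, 0.0685 and 0.0695). nhr-85 and nhr-137 were lost without wild type day 1 replicate 3 (0.0815 and 0.0573) or ok485 double mutant replicate 1 (0.0841 and 0.0584). nhr-85 was lost without pqm-1(ok485) replicate 1 (0.0633) or pqm-1(rhd90) replicate 3 (0.0509), and nhr-85 and nhr-53 without ok485 double mutant replicate 2 (0.0537 and 0.0594). The count of 14 became 3 and 5 without wild type day 1 replicates 2 and 3, 1 and 5 without ceh-60 day 1 replicates 1 and 3, and 4, 9 and 1 without ok485 double mutant replicates 1, 2 and 3. It was 9 without pqm-1(ok485) replicate 1, pqm-1(rhd90) replicate 3 or rhd90 double mutant replicate 3. For the difference between the rhd90 and the wild type background no member passed by edgeR. Of all genes 0.0809% were higher, 0.191% lower and 0.272% in either direction. DESeq2 called 1 member, and edgeR without a filter on low counts 2. The members' median was -0.12, against -0.00 for all genes, and 63 of 169 estimates were above 0. At an unadjusted p under 0.05 there were 23 members, and the share of all genes was not counted. Among the 14, nhr-97 gave -0.34 ± 0.09 with rhd90 (edgeR adjusted p = 0.172) and nhr-101 -0.63 ± 0.17 (0.175). The differences with ok485 and with rhd90 were not tested against each other.

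**Figure D5:**
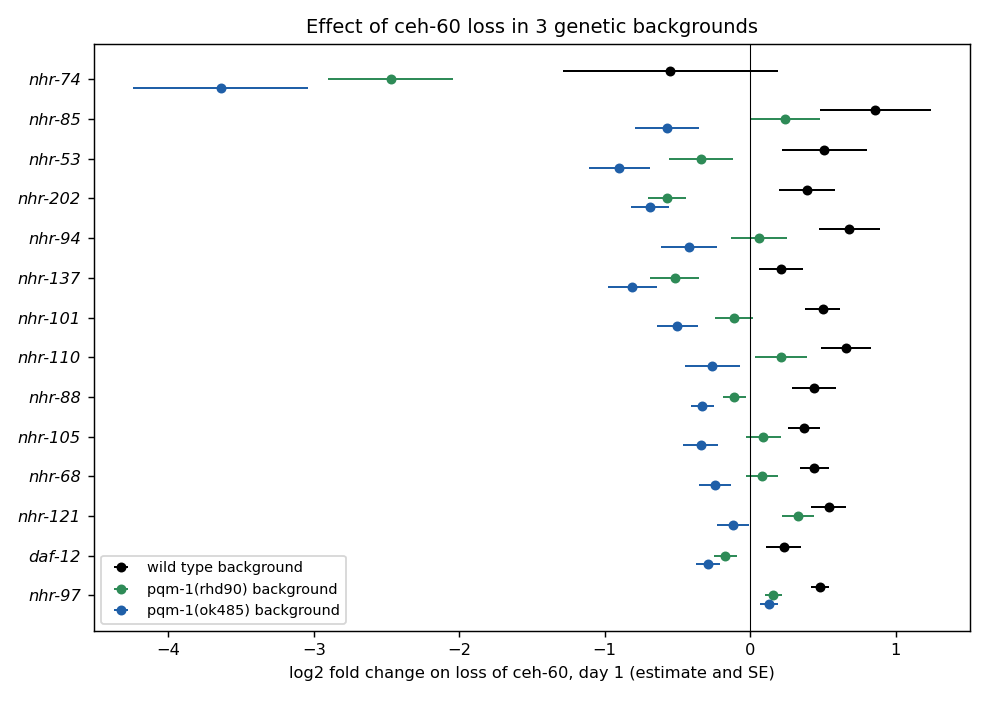
Log2 fold change on loss of ceh-60 on day 1, with SE, for the 14 receptor genes whose effect differed between the wild type and the pqm-1(ok485) background. Black points are ceh-60 against wild type, green points the rhd90 pair and blue points the ok485 pair, each from the fit of its own table. The genes were chosen for the blue point lying to the left of the black one. The green point lies between them for each gene, closest to the blue one for nhr-97 (0.16 and 0.13). The choice of genes favours such a place, so it is no separate result about rhd90. In the fit of all day 1 libraries, the effect on nhr-97 differed from the wild type background by -0.33 with ok485 and -0.34 with rhd90.

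With ceh-60 intact, few receptor genes passed the test between the pqm-1 alleles. Of 168 members, 6 were lower in pqm-1(rhd90) than in pqm-1(ok485) (3.57%) and none higher, against 5.72% and 1.67% of all genes and 7.39% in either direction. nhr-62, which extends lifespan under dietary restriction, was 4.80, 3.43 and 2.95 CPM with ok485 and 1.82, 1.99 and 1.39 CPM with rhd90 (-1.11 ± 0.20, adjusted p = 0.00837). nhr-50 (-0.93 ± 0.18), nhr-112 (-1.65 ± 0.35) and nhr-31 (-0.43 ± 0.09) were lower too, with adjusted p-values of 0.0108, 0.0158 and 0.0157. nhr-91, a GCNF-type receptor, and nhr-14 were lower by smaller margins over the threshold (-0.78 and -0.48, adjusted p = 0.0398 and 0.0475). Without pqm-1(rhd90) replicate 3 none of these 6 calls held (0.0555, 0.0592, 0.0788, 0.0729, 0.139 and 0.126 for nhr-62, nhr-50, nhr-112, nhr-31, nhr-91 and nhr-14), and a single other member passed. Without pqm-1(rhd90) replicate 1 those of nhr-112, nhr-31, nhr-91 and nhr-14 were lost (0.0537, 0.0721, 0.0747 and 0.125) and 2 members passed, and without pqm-1(ok485) replicate 1, where nhr-14 was lost (0.079), 11 did, 4 of them higher and 7 lower. A replicate block gave 12, with 2 higher and 10 lower. Calls over all genes, 984 in the reported fit, were 187 without pqm-1(rhd90) replicate 3 and 349 without its replicate 1. They were 2186 without pqm-1(ok485) replicate 1. nhr-91 and nhr-14 were also lost without pqm-1(ok485) replicate 2 (0.152 and 0.0798), pqm-1(rhd90) replicate 2 (0.0882 and 0.0985), ok485 double mutant replicate 1 (0.0508 and 0.062) and rhd90 double mutant replicate 3 (0.0582 and 0.0706), nhr-14 without ok485 double mutant replicate 3 (0.0643) or rhd90 double mutant replicate 2 (0.0561), and nhr-91 without rhd90 double mutant replicate 1 (0.0507).

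Between the double mutants, 17 members were higher with rhd90 (10.1%) and 4 lower (2.38%), against 7.89% and 6.37% of all genes and 14.3% in either direction. The 4 that were lower, nhr-112, nhr-62, nhr-50 and nhr-31, were also lower with rhd90 when ceh-60 was intact, in separate libraries. Of all genes lower between the double mutants, 59.2% were also lower there. nhr-31 was 51.7, 62.2 and 50 CPM in the ok485 and 37.8, 39.9 and 39.7 CPM in the rhd90 double mutant (-0.48 ± 0.09, adjusted p = 0.00423), the only one of the 21 calls to hold without any library. nhr-112 was 2.05, 2.41 and 2.11 CPM against 0.611, 0.921 and 0.904 CPM (-1.44 ± 0.31, adjusted p = 0.00938), lost without rhd90 double mutant replicate 1 (0.0537). Of the rises, nhr-213 (1.43 ± 0.33), nhr-206 (1.2 ± 0.29), nhr-142 (1.01 ± 0.25), nhr-168 (0.87 ± 0.21), nhr-110 (0.74 ± 0.18) and nhr-195 (0.70 ± 0.20) were the largest among members of at least 1 CPM, with adjusted p-values of 0.0118, 0.016, 0.0185, 0.0158, 0.0174 and 0.0318. nhr-10, nhr-68 and nhr-101 were also higher, by 0.32, 0.37 and 0.58. Each of these 9 was lost without rhd90 double mutant replicate 1 (0.0513 to 0.185). Without rhd90 double mutant replicate 3 nhr-213, nhr-168, nhr-110, nhr-195, nhr-10, nhr-68 and nhr-101 were lost (0.0536, 0.0803, 0.07, 0.0691, 0.0565, 0.0926 and 0.0622). The ok485 double mutant libraries ended those of nhr-168, nhr-110, nhr-195, nhr-10, nhr-68 and nhr-101 (replicate 1, at 0.0549, 0.0567, 0.0741, 0.0567, 0.0921 and 0.0532), nhr-142, nhr-195, nhr-10 and nhr-68 (replicate 2, at 0.0572, 0.0694, 0.0586 and 0.0953) and nhr-206, nhr-142, nhr-110, nhr-195 and nhr-68 (replicate 3, at 0.0736, 0.0852, 0.0529, 0.11 and 0.104). nhr-62 and nhr-50 (-0.73 ± 0.20 and -0.62 ± 0.17, adjusted p = 0.0277 and 0.0267) were lost without ok485 double mutant replicate 2 (0.0695 and 0.097) or 3 (0.0612 and 0.106) or rhd90 double mutant replicate 1 (0.0972 and 0.115) or 3 (0.0778 and 0.0934). The count of 21 became 10, 12 and 8 without ok485 double mutant replicates 1, 2 and 3, and 2 and 6 without rhd90 double mutant replicates 1 and 3, and no member was higher without rhd90 double mutant replicate 1. Over all genes, these omissions gave 1754, 1102 and 1269 calls, and 947 and 1069 calls, in place of 1900.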

How the data were processed

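Messenger RNA of whole animals was sequenced by the authors in 24 libraries, and what they deposited are unnormalized read counts for each gene, in 2 tables. Reads were aligned with STAR 2.5.4, per the submitters' processing notes, and counted over exons with featureCounts 1.5.2 against WormBase release 260, per the file headers. No other option appears in the command recorded there, and the default settings ignore strand and leave out reads that map to several places or genes. The genome build is not given in the sources used here. Exon length per gene, another deposited column, gave levels per kilobase. Gene symbols matched 43818 of 46778 identifiers. Exon overlaps came from the exon coordinates deposited with the counts, and the protein-coding class came from the Ensembl 115 annotation.

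Counts were tested with edgeR 4.0.16 in R 4.3.3 by the quasi-likelihood test, after the default expression filter by group and TMM scaling, with Benjamini-Hochberg adjustment over all genes tested. The 3 fits held the first table, the second table and all day 1 libraries, with 13137, 13324 and 13589 genes, common coefficients of biological variation of 0.0838, 0.106 and 0.0972, and 8, 8 and 12 residual degrees of freedom. They gave 11 comparisons, 3 of them differences of effects. The procedure was tested on simulated counts. Replicate libraries of a group differed by more than sampling noise (chi-square per degree of freedom of at least 3.74). Intervals on reads are exact and cover counting error only. Alternatives were DESeq2 1.42.0, RLE scaling, no filter, only the compared groups, a replicate block and leaving out each library.

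Same-numbered libraries deviated together in all 3 pairs only for the ok485 double mutant against pqm-1(ok485) (correlations of 0.430, 0.450 and 0.102, minimum 0.1), where the block changed none of the 13 calls and gave 16 in all. The genes named are the members of lists by role, up to 6 rises and 6 falls per comparison among members past the threshold with at least 1 CPM and, between 2 groups, no overlap, the 10 highest levels per length, and up to 3 rises and falls per pathway list. The members and lists were chosen with earlier results of these data known.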

Additional observations from a re-analysis of the deposited data

Results flagged for a closer look

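For 2 members the test of the difference itself separated the ceh-60 effects of the 2 days. The day 4 effect minus the day 1 effect was -1.02 ± 0.25 for nhr-6 (edgeR adjusted p = 0.0398), lost under 9 of 12 omissions of a library (0.0512 to 0.104), and -0.24 ± 0.06 for nhr-46 (adjusted p = 0.0324), lost under 5 of 12 (0.0593 to 0.0959).

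The effect of ceh-60 loss on day 1 was lower with pqm-1(ok485) than in the wild type background for 14 members, again by the test of the difference. It was -3.07 for nhr-74, -1.40 for nhr-85, -1.39 for nhr-53, -1.07 for nhr-94 and nhr-202, -0.99 for nhr-137 and -0.98 for nhr-101, whose tests stand in the report. nhr-74 had an adjusted p of 0.0474 by edgeR, lost under 13 of 18 omissions (0.0539 to 0.126). nhr-110 gave -0.89 ± 0.23 (adjusted p = 0.0386), nhr-88 -0.75 ± 0.20 (0.0416), nhr-105 -0.68 ± 0.16 (0.0276) and nhr-68 -0.65 ± 0.16 (0.026). nhr-121 gave -0.64 ± 0.17 (0.0386), daf-12 -0.50 ± 0.14 (0.0485) and nhr-97 -0.33 ± 0.09 (0.0416). Calls were lost under 10 of 18 omissions for nhr-110 (0.0501 to 0.099), 11 for nhr-88 (0.0513 to 0.138), 5 for nhr-105 (0.0506 to 0.0673), 8 for nhr-121 (0.0504 to 0.123), 13 for daf-12 (0.053 to 0.147) and 7 for nhr-97 (0.0544 to 0.136).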

How the results depend on the processing

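Counts of members called stayed within 1.5 times of the reported count under 144 of the alternatives and moved further under 54, and no direction reversed. Leaving out 1 library gave 26 to 59 calls for ceh-60 loss on day 1, 31 to 49 on day 4, 52 to 69 for age in wild type, 43 to 57 for age in ceh-60, 0 to 3 for the change of the ceh-60 effect between days, 4 to 13 with ok485, 9 to 31 with rhd90, 1 to 11 between the alleles, 2 to 29 between the double mutants, 1 to 19 for the difference of the ok485 from the wild type background and 0 to 2 for that of rhd90. Without a filter on low counts there were 5 calls for the change between days, in place of 2, 16 with rhd90, in place of 26, and 2 for the difference of the rhd90 background, in place of 0. DESeq2 gave 17 with rhd90 and 1 for that difference. With only the compared groups there were 2 with ok485, in place of 13, 3 between the alleles, in place of 6, and 5 for the difference of the ok485 background, in place of 14. With a replicate block there were 4 for the change between days, 12 between the alleles and 33, in place of 21, between the double mutants. Apart from the ok485 pair, every comparison had at least 1 correlation of same-numbered libraries at or under 0.1. Others were higher, such as 0.404 and 0.477 for ceh-60 loss on day 4. With rhd90 they reached 0.442 and 0.402, and a replicate block gave 37 calls, in place of 26. What same-numbered libraries share was not tested. The cause of these changes was not tested. For single members, 4359 values kept their side of the threshold and 1005 lost it. Of all genes called on day 4, 66.2% were higher by edgeR and 54.7% by DESeq2. No scaling moved the median of all genes by over 0.1 on the log2 scale. For the change between days, a fit of only the compared groups is the reported fit. Members of low counts are the least certain: 99 were tested nowhere.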
